A study of Mus musculus with 12 samples.

Results

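Embryonic mouse palatal shelves that carried a conditional knockout of Dnmt1 were set directly against shelves of wild type embryos exposed to AzadC, a drug that traps DNA methyltransferases. The comparison took in 6 of the 12 libraries of the series, 3 knockout and 3 AzadC, and every gene of the deposited tables. The knockout embryos were conditional Dnmt1 knockouts and received no treatment. The AzadC embryos were wild type and were exposed to AzadC, 5-aza-2'-deoxycytidine. The groups compared therefore differed in genotype, in exposure and in the handling that goes with it. Levels in the remaining 6 libraries are given beside them, 3 from wild type embryos given the vehicle and 3 from untreated wild type embryos, called control. All embryos were collected on gestational day 12, when the shelves, paired outgrowths of the upper jaw that later meet to form the roof of the mouth, are still growing. Each library was a pool of 2 embryos of 1 genotype, so that a group held 6 embryos in 3 libraries. The sources used here do not give the Cre driver of the knockout, the deleted exons, or the dose, route and time of AzadC. Levels listed as 3 values are those of libraries 1, 2 and 3 of a group. The knockout is conditional, so that cells of a library outside the reach of Cre may keep Dnmt1.

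Dnmt1 is the maintenance methyltransferase: after DNA replication it methylates the new strand at CpG sites that carry methylation on the old strand, with the help of Uhrf1. AzadC is a cytosine analogue that dividing cells build into DNA, where it binds Dnmt1, Dnmt3a and Dnmt3b covalently and leads to their loss, so that methylation is diluted over cell divisions. Methylation of CpG-rich promoters is best known for keeping germline genes, imprinted alleles and some X-linked gene families silent in somatic cells. In cultured cells the loss of methylation is also known to wake transposable elements, whose double-stranded RNA is sensed by Mda5 (gene Ifih1) and RIG-I (gene Ddx58) and leads to an interferon response.

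Depth was 12640536 to 33113790 expected counts per library, with 16001 to 16937 genes at 10 or more counts in the knockout libraries and 15109 to 16933 in the AzadC libraries. Principal components of the 500 most variable genes put the 3 knockout libraries apart on the first axis (64.9% of the variance, scores -68.2 to -57.3), and the AzadC, vehicle and control libraries lay together at 14.6 to 25.4. Markers of palatal mesenchyme were detected in both groups, at unequal levels. Twist1 stood at 99.2 to 128 TPM in the knockout libraries and 196 to 271 TPM in the AzadC libraries. Osr2 was at 61.1 to 140.0 TPM in the knockout and 55.8 to 84.9 TPM under AzadC. Prrx1, Pax9, Meox2, Tbx22 and Barx1 had at least 26.1 TPM in every library of both groups. Shox2 was lower, at 6.89 to 24.9 TPM in the knockout and 3.67 to 15.1 TPM under AzadC. Msx1 was at 4.47 to 27.3 TPM in the knockout and only 0.43 to 6.21 TPM under AzadC. Skeletal muscle content varied between libraries, with Myog at 23.6 to 115 TPM in the knockout libraries and 4.68 to 17.1 TPM in the AzadC libraries. Of 4 germ cell markers, Dazl was at 68.7 to 99.9 TPM in the knockout libraries and at most 0.79 TPM in an AzadC library, and Ddx4 at 4.44 to 5.54 TPM in the knockout and 0.35 to 0.4 TPM under AzadC. Pou5f1 was at 0.12 to 0.53 TPM in the knockout, 0 in every AzadC library and up to 0.92 TPM in a control library. Dppa3 reached 1.68 TPM in a knockout library and was at 0 in every AzadC library, and the part of germ cells in the germline results was not tested. The labels do not say which libraries share a litter, and p-values measure the spread between these pools only.

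Knockout shelves differed from AzadC shelves in 1841 of 17335 genes tested, 10.6%, by edgeR at an adjusted p below 0.05. Of these, 1093 were higher in the knockout (6.31%) and 748 were lower (4.31%). Over all genes tested, 533 passed the filter on low counts only through the knockout libraries, where a difference is built in. Of these 533, 271 were among the 1093 higher genes. Of the other 16802 genes, 822 were higher (4.89%) and 748 lower. The sizes and shares of the 1093 higher genes that follow include the 271. The 2 directions differed in size: the median log2 change was 1.17 among the higher genes and -0.48 among the lower genes, against 0.005 over all genes tested. More than a 4-fold difference was found for 33.6% of the higher genes and 2.14% of the lower genes. Among the higher genes, 108 had no count in any AzadC library and 66 had 1 to 3 counts over the 3 libraries. The knockout and AzadC libraries did not overlap for 1086 of the 1093 higher genes and 739 of the 748 lower genes, where 16% and 14.2% of all genes tested did not overlap in the same directions. Genes of the X chromosome made up 6.74% of the annotated higher genes and 3.65% of all annotated genes tested. Leaving out knockout library 2 brought the counts to 620 higher and 295 lower, and leaving out AzadC library 1, 2 or 3 brought the lower genes to 441, 497 or 458.

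**Figure D1:**
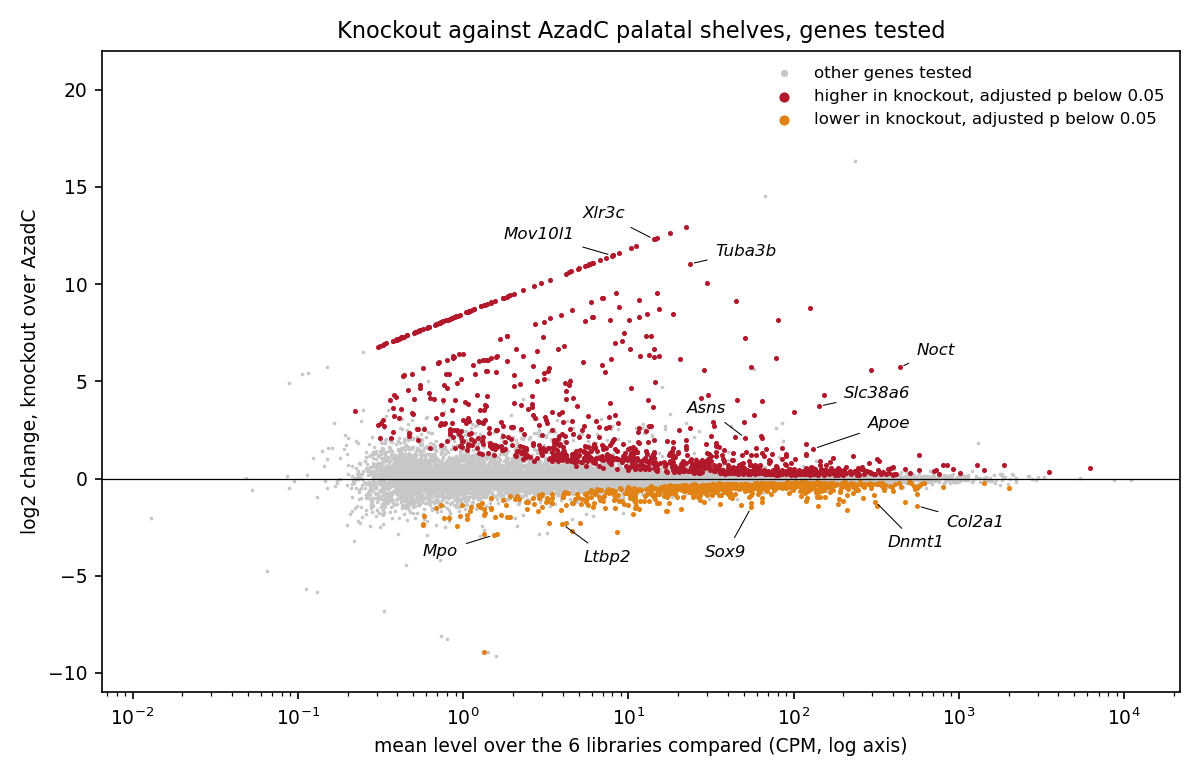
Log2 change of each gene tested, knockout over AzadC (vertical axis), against its mean level over the 6 libraries compared in CPM (horizontal log axis). Red and orange points are the 1093 genes higher and the 748 genes lower in the knockout by edgeR at an adjusted p below 0.05, and grey points are the others; the straight upper edge holds genes without a count in the AzadC libraries, whose plotted change depends on the prior count of the fit and is no estimate of size.

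Of the enzymes that write and erase DNA methylation, Dnmt1 itself and Tet2 were lower in the knockout. Dnmt1 (ENSMUSG00000004099, chr9:20907209-20959888, mm10) had 201, 179.6 and 191 CPM in the knockout, against 408, 482 and 411 CPM under AzadC, so that every knockout library lay below every AzadC library (log2 change -1.19 ± 0.07 (SE), edgeR adjusted p = 2.77e-07). The vehicle and control groups did not share 1 level: Dnmt1 had 452, 451 and 448 CPM with vehicle and 286, 278 and 258 CPM in the control. Dnmt1 was also lower in the knockout than in its own control (log2 change -0.53 ± 0.07 (SE), edgeR adjusted p = 0.000369). AzadC and vehicle differed by less than their spread (log2 change -0.05 ± 0.07 (SE), edgeR adjusted p = 0.955). These are counts over the whole gene, and a transcript that lacks the deleted exons can add to them.

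Tet2, which oxidizes methylcytosine on the way to demethylation, had 57.6, 51.5 and 51.9 CPM in the knockout, against 67.1, 71.5 and 76.3 CPM under AzadC (log2 change -0.42 ± 0.07 (SE), edgeR adjusted p = 0.00326). The knockout libraries were again all below the AzadC libraries, by a far smaller step than for Dnmt1. Dnmt1 and Tet2 were the members that passed the test among 24 tested of this list, whose median log2 change was -0.004. The de novo methyltransferase Dnmt3a averaged 485 ± 10.9 CPM in the knockout and 538 ± 14.4 CPM under AzadC (SD, n = 3 each; edgeR adjusted p = 0.129), and its partner Dnmt3b 23.6 ± 1.73 CPM in the knockout and 22.6 ± 2.42 CPM under AzadC (edgeR adjusted p = 0.782). Uhrf1 averaged 288 ± 17.7 CPM in the knockout and 249 ± 25.6 CPM under AzadC, a difference that missed the threshold (edgeR adjusted p = 0.129) and passed it without AzadC library 2 (edgeR adjusted p = 0.0472). Tet1 averaged 48.4 ± 1.39 CPM in the knockout and 47.9 ± 2.21 CPM under AzadC (edgeR adjusted p = 0.938). Dnmt3l, the germline cofactor of the de novo enzymes, had too few counts to be tested, with 7 counts over the knockout libraries and 3 over the AzadC libraries.

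Germline genes were among the largest changes, and many had levels of several CPM or more in the knockout shelves and stood at or near 0 in the AzadC shelves. The promoters of 4 of them are given below with their CG sites marked. These 4 had the highest fitted changes among list members that had 0 to 3 counts over the AzadC libraries and a matched RefSeq window. Fitted changes of genes without AzadC counts depend on the prior count of the fit, so this choice is no ranking by size. Each promoter is a window of 300 bases, 250 before and 50 after the start that RefSeq gives in build GRCm38.p6. It is read 5′ to 3′ on the strand of the gene, with CG in capitals. The window of Xlr3c lies on the minus strand at chrX:73265341-73265640 and holds 7 CG, that of Mov10l1 on the plus strand at chr15:88982744-88983043 with 20 CG, that of Tex13b on the minus strand at chrX:140813384-140813683 with 13 CG, and that of Tuba3b on the plus strand at chr6:145615713-145616012 with 16 CG.
Xlr3c: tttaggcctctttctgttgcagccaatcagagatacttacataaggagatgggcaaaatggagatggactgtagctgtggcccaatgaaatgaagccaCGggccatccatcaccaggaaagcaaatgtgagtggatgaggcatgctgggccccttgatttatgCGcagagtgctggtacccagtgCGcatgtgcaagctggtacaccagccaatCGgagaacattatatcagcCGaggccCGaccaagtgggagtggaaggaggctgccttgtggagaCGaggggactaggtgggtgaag
Mov10l1: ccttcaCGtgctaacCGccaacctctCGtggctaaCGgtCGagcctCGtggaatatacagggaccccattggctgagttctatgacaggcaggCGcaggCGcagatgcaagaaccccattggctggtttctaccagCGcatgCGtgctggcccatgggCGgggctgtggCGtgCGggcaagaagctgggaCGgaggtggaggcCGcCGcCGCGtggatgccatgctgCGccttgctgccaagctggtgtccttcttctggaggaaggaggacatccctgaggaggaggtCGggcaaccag
Tex13b: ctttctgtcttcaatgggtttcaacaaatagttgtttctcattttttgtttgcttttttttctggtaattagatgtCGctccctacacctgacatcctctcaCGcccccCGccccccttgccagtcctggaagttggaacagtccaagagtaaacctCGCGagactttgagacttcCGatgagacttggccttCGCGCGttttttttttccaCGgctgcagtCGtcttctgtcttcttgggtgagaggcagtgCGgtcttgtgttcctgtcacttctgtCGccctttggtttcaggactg
Tuba3b: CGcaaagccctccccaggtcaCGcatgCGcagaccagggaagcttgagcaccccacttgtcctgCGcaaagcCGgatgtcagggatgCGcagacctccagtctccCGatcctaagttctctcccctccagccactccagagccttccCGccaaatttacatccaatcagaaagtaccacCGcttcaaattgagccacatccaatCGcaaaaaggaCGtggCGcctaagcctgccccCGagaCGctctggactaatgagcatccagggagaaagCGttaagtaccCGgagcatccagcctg
The RefSeq start used for Mov10l1 lies 85 bases, and that for Tuba3b 206 bases, from the gene's start in the GENCODE annotation, while those for Xlr3c and Tex13b lie 0 bases from it. The Mov10l1 window holds the word CACGTG, the E-box that Mga and Max bind, and the Tuba3b window holds TCCCGC, the core of the E2f6 site; these proteins belong to a Polycomb complex known for silencing germline genes. Searched on both strands, CACGTG occurs in 7.67% and TCCCGC in 23.7% of the 20942 RefSeq windows of this length. The median over these windows is 11 CG, above the 7 of Xlr3c and below the other 3, and methylation of the windows was not tested. Of the 55 germline list genes higher in the knockout, 49 had a window. Only 12143 of the 17335 genes tested (70%) had one, so that a comparison of promoters between sets of genes would be void, and a matching word is not a bound site.

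Among the germline lists, the highest fitted change belonged to an X-linked gene without AzadC counts. Such a change depends on the prior count of the fit, so that it does not rank the gene by size. Dcaf8l (ENSMUSG00000035395, chrX:89403848-89409689, mm10), an X-linked member of a ubiquitin ligase adaptor family, had 33.6, 41.1 and 32.7 CPM in the knockout and no count in any other library. That makes it at least 708-fold higher than under AzadC against a floor of 3 counts over the group (edgeR adjusted p = 2.69e-06). Xlr3c, of the X-linked lymphocyte-regulated family expressed in germ cells, had 25.6, 35.4 and 24.7 CPM in the knockout, against 0, 0 and 0 CPM under AzadC, at least 566-fold higher in the knockout. Its relative Xlr4c had 8.91, 10.3 and 5.81 CPM in the knockout, against 0, 0 and 0 CPM under AzadC, at least 167-fold higher. Xlr3 and Xlr4 genes are near-identical copies between which reads cannot be placed with certainty, so their values are uncertain one by one. Tex13b, a testis-expressed gene, had 12.8, 18.1 and 13.3 CPM in the knockout libraries and no count in the AzadC libraries, at least 291-fold higher in the knockout (edgeR adjusted p = 3.15e-05). Rhox5, the homeobox gene of the X-linked reproductive cluster that is a classic target of DNA methylation, had 40.7, 46.5 and 34.4 CPM in the knockout, against 0.394, 1.33 and 0.167 CPM under AzadC (log2 change 6.13 ± 0.50 (SE), edgeR adjusted p = 3.91e-06). Unlike the genes above, Rhox5 was detected in every AzadC library, and it stood at 0.247, 0.193 and 0.726 CPM in the vehicle libraries. Of 43 X-linked germline genes, 25 could be tested, 20 of them only because their knockout libraries passed the filter on low counts. Of the other 5, 3 were higher (60%, against 4.89% of all genes that passed through other groups too) and 0 lower.

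Of 22 regulators of germ cell identity tested, 12 were higher in the knockout, but 11 of the 22 had passed the filter only through the knockout. Of the other 11, 2 were higher (18.2%, against 4.89% of all genes that passed through other groups too), with a median log2 change of 0.30. Dazl, an RNA-binding protein that germ cells need to develop, had 67.5, 120.2 and 80.3 CPM in the knockout, against 0, 0.363 and 0.1002 CPM under AzadC (log2 change 9.14 ± 0.43 (SE), edgeR adjusted p = 2.05e-07), with at most 0.0807 CPM in a vehicle library and no count in the control libraries. Sohlh2, a helix-loop-helix factor of early germ cell differentiation, had 44, 81.8 and 53.2 CPM in the knockout, against 0, 0 and 0.1002 CPM under AzadC, a ratio of 1176 with a 95% counting interval of 402 to 5703. Tuba3b, a testis-specific alpha-tubulin, had 37.8, 64.4 and 40.1 CPM in the knockout, against 0, 0.0606 and 0 CPM under AzadC, a ratio of 2815 that rests on 1 AzadC count and has a 95% interval of 505 to 111213. The knockout libraries of each of these genes lay above all 9 other libraries. Tuba3a, a near-identical copy of Tuba3b with which it can share reads, had 14.1, 26.7 and 15.3 CPM in the knockout, against 0, 0.0606 and 0.167 CPM under AzadC (log2 change 7.49 ± 0.53 (SE), edgeR adjusted p = 1.01e-06).

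Genes of the piRNA pathway, which makes the small RNAs that silence transposable elements in germ cells, gave 11 of 18 higher in the knockout. Of these 18, 7 had passed the filter only through the knockout. Of the other 11, 4 were higher (36.4%, against 4.89% of all genes that passed through other groups too). Mov10l1, the helicase that processes piRNA precursors (ENSMUSG00000015365, chr15:88982909-89055152, mm10), had 14.7, 19.6 and 13.4 CPM in the knockout libraries and no count in the AzadC libraries, at least 316-fold higher in the knockout (edgeR adjusted p = 4.32e-06). Gpat2, a mitochondrial acyltransferase family member needed for piRNA production, had 25, 36 and 23.3 CPM in the knockout, against 0.473, 0.121 and 0.468 CPM under AzadC (log2 change 6.25 ± 0.55 (SE), edgeR adjusted p = 8e-06). Ddx4, the germ cell helicase Vasa, had 7.99, 10.1 and 9.18 CPM in the knockout, against 0.63, 0.727 and 0.668 CPM under AzadC (log2 change 3.74 ± 0.31 (SE), edgeR adjusted p = 4.63e-06). Ddx4 was much lower than Dazl in the knockout, where the group means were 5.01 TPM for Ddx4 and 79.3 TPM for Dazl. Fkbp6, a chaperone of the same pathway, had 11.9, 21.3 and 13.2 CPM in the knockout, against 0, 0 and 0.1002 CPM under AzadC, a ratio of 306 (95% counting interval 104 to 1485).

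Of 22 meiotic chromosome genes tested, 11 were higher in the knockout, but 9 of the 22 had passed the filter on low counts only through the knockout. These 9 held 8 of the 11. Of the other 13, 3 were higher (23.1%, against 4.89% of all genes that passed through other groups too) and 0 lower, with a median log2 change of 0.46. Stag3, the meiosis-specific cohesin subunit, had 70.7, 83.3 and 62.1 CPM in the knockout, against 16.4, 16.8 and 15.6 CPM under AzadC (log2 change 2.15 ± 0.13 (SE), edgeR adjusted p = 2.16e-07). Sycp2, of the synaptonemal complex that zips paired chromosomes together, had 3.43, 6.94 and 5.93 CPM in the knockout, against 0, 0.242 and 0.2004 CPM under AzadC (log2 change 5.00 ± 0.56 (SE), edgeR adjusted p = 8.44e-05), and Tex11, an X-linked factor of meiotic recombination, 2.42, 5.17 and 4.27 CPM in the knockout, against 0.0788, 0 and 0.267 CPM under AzadC (log2 change 4.76 ± 0.70 (SE), edgeR adjusted p = 0.00148). Stag3 was expressed in every library and more than 4-fold higher in the knockout, while Sycp2 and Tex11 were close to 0 under AzadC. The meiotic genes that were higher numbered 7 without knockout library 2. Sycp1, the transverse filament of the synaptonemal complex, had 3.38, 12 and 2.49 CPM in the knockout libraries and no count in the AzadC libraries, at least 119.8-fold higher. Its call rested on single libraries: without knockout library 2 its edgeR adjusted p was 0.0543, and without AzadC library 3 it was 0.0607. Untreated control libraries also held Sycp1, at 0, 0.958 and 2.4 CPM.

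Over all germline lists together, 85 of 128 genes were tested, 55 were higher in the knockout and 0 lower. Of the 85, 46 passed the filter on low counts only through the knockout libraries, where a difference is built in, and 44 of these were among the 55. Of the other 39, 11 were higher (28.2%, against 4.89% of all genes that passed through other groups too) and 0 lower, with a median log2 change of 0.56. With any 1 knockout or AzadC library left out, 47 to 52 germline genes were higher. AzadC against vehicle was read over the 39 members that passed the filter through other groups too. Of these, 0 were higher by edgeR at an adjusted p below 0.05, as 0.00577% of all genes were, and 1, Meioc, was lower. At an unadjusted p below 0.05, 5 of the 39 were higher (12.8%, against 3.89% of all genes tested), and the median log2 change over all 39 was 0.15. In the plot of germline genes the AzadC points of Rhox5, Ddx4 and Stag3 lie beside those of the vehicle libraries.

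**Figure D2:**
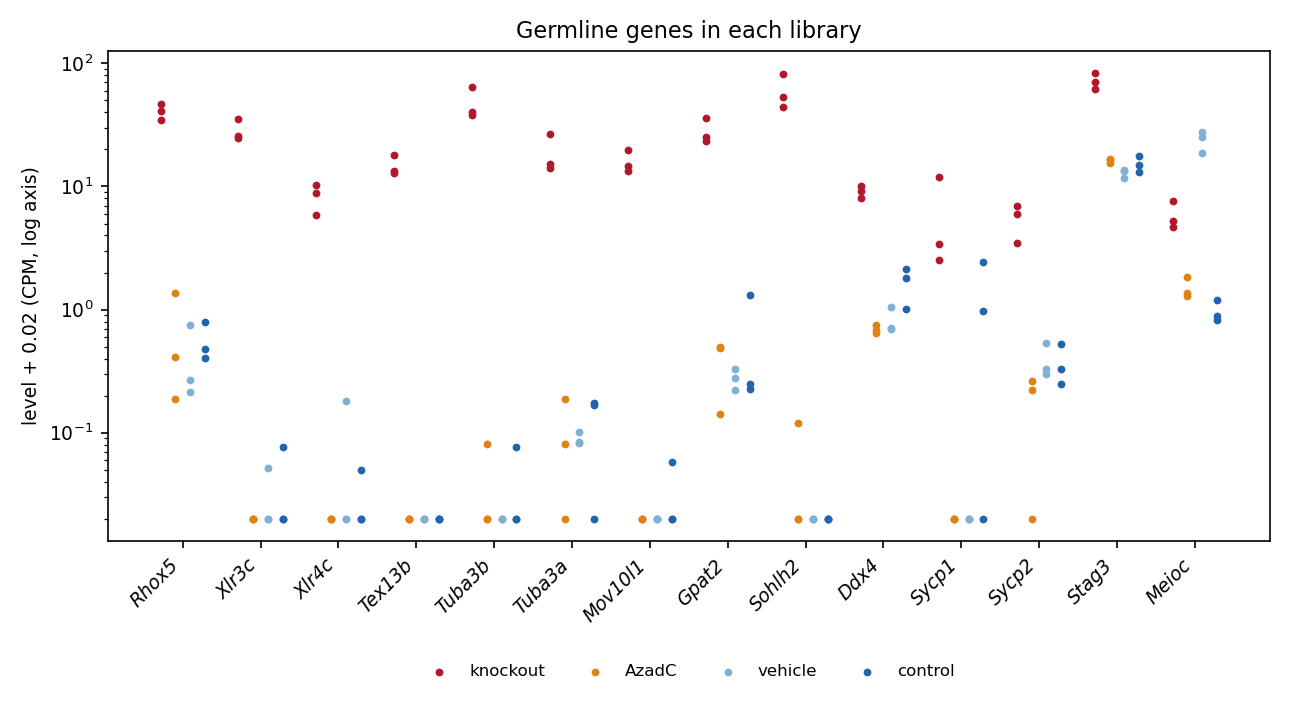
Level of 14 germline genes in each library in CPM plus 0.02 (vertical log axis), with 3 points a group in the order knockout, AzadC, vehicle and control for each gene; points on the bottom row are libraries without a count. The knockout points lie above all others for every gene shown except Meioc, where the vehicle libraries are highest at 18.7 to 27.8 CPM.

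Meioc, which keeps germ cells in the meiotic programme, was the exception to this pattern. It had 4.7, 7.53 and 5.21 CPM in the knockout, against 1.26, 1.33 and 1.8 CPM under AzadC (log2 change 1.95 ± 0.25 (SE), edgeR adjusted p = 0.00029), with no overlap. The vehicle libraries stood above both, at 18.7, 27.8 and 25.2 CPM, and the control libraries at 0.865, 1.19 and 0.799 CPM. Meioc was therefore higher in the knockout than in its control (log2 change 2.60 ± 0.26 (SE), edgeR adjusted p = 2.37e-05) and lower under AzadC than in its vehicle (log2 change -3.99 ± 0.25 (SE), edgeR adjusted p = 1.05e-05).

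Outside the germline lists, the genes highest in the knockout again included genes with no AzadC count. AV320801 on the X chromosome, Strc, which encodes stereocilin of the inner ear hair bundle, Tm9sf5 and Serpinb1c, a serine protease inhibitor, each had no count in the AzadC libraries. Their mean levels in the knockout were 16.1, 12, 10.9 and 9.95 CPM, so that they were at least 318-, 239-, 215- and 199-fold higher. Noct, by contrast, was expressed in every library. Noct (ENSMUSG00000023087, chr3:51224447-51251644, mm10), which encodes nocturnin, a rhythmically expressed phosphatase of NADP(H), had 859, 1138 and 592 CPM in the knockout, against 15.6, 14.6 and 18.7 CPM under AzadC (log2 change 5.71 ± 0.25 (SE), edgeR adjusted p = 1.18e-08). Vehicle and control libraries lay at the AzadC level, with group means of 17.3 and 18.1 CPM.

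Slc38a6 (ENSMUSG00000044712, chr12:73286779-73354049, mm10), of a family of neutral amino acid transporters, had 236, 317 and 244 CPM in the knockout, against 23.5, 17.6 and 19.8 CPM under AzadC (log2 change 3.72 ± 0.13 (SE), edgeR adjusted p = 2.51e-09). Pnpt1, the polynucleotide phosphorylase of mitochondria, had 173, 217 and 161 CPM in the knockout, against 54.7, 49.97 and 54.3 CPM under AzadC (log2 change 1.79 ± 0.10 (SE), edgeR adjusted p = 1.39e-07). For both genes the AzadC, vehicle and control means were close together, at 20.3, 18.1 and 22.2 CPM for Slc38a6 and 53, 49.6 and 48.4 CPM for Pnpt1. Nrk, a Ste20-type kinase, averaged 100.4 ± 35.1 CPM in the knockout and 35.5 ± 9.05 CPM under AzadC (SD, n = 3 each; log2 change 1.49 ± 0.30 (SE), edgeR adjusted p = 0.00652). Of retinoic acid metabolism, Aldh1a2, which makes retinoic acid, averaged 88.7 ± 35.1 CPM in the knockout and 30.2 ± 18.3 CPM under AzadC (log2 change 1.58 ± 0.36 (SE), edgeR adjusted p = 0.0132), and Cyp26b1, which degrades it, 38.7 ± 11.4 CPM in the knockout and 90.03 ± 15.8 CPM under AzadC (log2 change -1.23 ± 0.22 (SE), edgeR adjusted p = 0.0031). The call of Aldh1a2 was lost without knockout library 2, AzadC library 2 or AzadC library 3 (edgeR adjusted p = 0.0719, 0.055 and 0.0646), while that of Cyp26b1 held with any 1 library left out.

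The integrated stress response was the list with the most members called outside the germline. This programme is run by the factor Atf4 and raises amino acid transporters, amino acid synthesis and aminoacyl-tRNA synthetases. Asns, asparagine synthetase, had 82.9, 93.7 and 70.1 CPM in the knockout, against 18.4, 20.3 and 19 CPM under AzadC (log2 change 2.10 ± 0.13 (SE), edgeR adjusted p = 2.64e-07). Slc7a5, the large neutral amino acid transporter, had 111, 114 and 86.8 CPM in the knockout, against 26.5, 22.5 and 24.2 CPM under AzadC (log2 change 2.09 ± 0.13 (SE), edgeR adjusted p = 2.77e-07). The knockout level of both was more than 4-fold that under AzadC, and no library overlapped. The cationic amino acid transporters Slc7a1 and Slc7a3 averaged 52.8 ± 3.25 CPM and 24.7 ± 5.53 CPM in the knockout, against 15 ± 0.54 CPM and 1.52 ± 0.424 CPM under AzadC (SD, n = 3 each), with log2 changes of 1.81 ± 0.11 and 4.02 ± 0.27 (SE; edgeR adjusted p = 3.33e-07 and 7.81e-07). Atf4 itself, which is known to be controlled mainly at translation, had 200.4, 189 and 174 CPM in the knockout, against 145, 145 and 140.4 CPM under AzadC (log2 change 0.39 ± 0.09 (SE), edgeR adjusted p = 0.0166). Its call was lost without knockout library 1 or 2 or AzadC library 3 (edgeR adjusted p = 0.0656, 0.0605 and 0.0569).

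Of the 46 genes of this list, 44 were tested, and 34 were higher in the knockout and 0 lower, where 6.31% of all genes tested were higher. Of the 44, 3 passed the filter only through the knockout libraries. Among the other 41, 31 were higher (75.6%, against 4.89% of all genes that passed through other groups too), with a median log2 change of 0.55. Some members were named after their values were seen. Chac1, which breaks down glutathione, and Trib3, a feedback inhibitor of Atf4, had log2 changes of 5.03 and 2.98, and the secreted factor Fgf21 had 1.005, 1.57 and 0.711 CPM in the knockout and no count under AzadC. The synthetases Aars, Nars, Iars and Gars had smaller log2 changes of 0.55, 0.45, 0.48 and 0.48. Between 31 and 35 members were higher with any 1 library left out, and 28 passed when each group was taken relative to its own control, where 2.2% of all genes were higher. Averaged over its members and centred on the 12 libraries, its log2 level came to 0.73, 0.80 and 0.51 in the knockout, -0.32, -0.27 and -0.22 under AzadC, -0.18, -0.21 and -0.26 with vehicle and -0.12, -0.21 and -0.24 in the control. The AzadC libraries therefore lay with the vehicle and control libraries, and the knockout libraries above all 9.

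Chaperones and folding enzymes of the endoplasmic reticulum were also higher in the knockout, by smaller steps. Herpud1, a component of endoplasmic reticulum-associated degradation, had 49.8, 52.5 and 46.1 CPM in the knockout, against 25.4, 20.8 and 28.3 CPM under AzadC (log2 change 0.99 ± 0.14 (SE), edgeR adjusted p = 0.000495). Canx, the lectin chaperone calnexin, had 486, 514 and 452 CPM in the knockout, against 319, 319 and 316 CPM under AzadC (log2 change 0.60 ± 0.07 (SE), edgeR adjusted p = 6.16e-05). Neither gene had overlapping libraries. The disulfide isomerases Pdia6 and Pdia3 had log2 changes of 0.51 ± 0.07 and 0.42 ± 0.06 (SE; edgeR adjusted p = 0.000696 and 0.000985). In all, 13 of 21 members were higher (61.9%, against 6.31% of all genes) and 0 lower, with a median of 0.42, and 9 to 13 with any 1 library left out. Only 2 of the 21 (9.52%, against 2.2% of all genes), by edgeR, passed when each group was taken relative to its own control, where the median was 0.29.

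Targets of the tumour suppressor p53 were partly higher. Eda2r, a receptor of the tumour necrosis factor family, had 4.57, 8.27 and 5.87 CPM in the knockout, against 1.34, 1.27 and 1.4 CPM under AzadC (log2 change 2.21 ± 0.33 (SE), edgeR adjusted p = 0.00102). Sesn2, which is a target of both p53 and Atf4, had 42.4, 48.2 and 39.9 CPM in the knockout, against 19.4, 16.1 and 19 CPM under AzadC (log2 change 1.26 ± 0.17 (SE), edgeR adjusted p = 0.000342). Ccng1, cyclin G1, averaged 56.5 ± 12.9 CPM in the knockout and 29.2 ± 3.29 CPM under AzadC (SD, n = 3 each; log2 change 0.96 ± 0.16 (SE), edgeR adjusted p = 0.00237), and Zmat3, an RNA-binding target of p53, 58.8 ± 10.2 CPM in the knockout and 40.2 ± 0.935 CPM under AzadC (log2 change 0.55 ± 0.11 (SE), edgeR adjusted p = 0.00576). In these 4 genes every knockout library lay above every AzadC library. Of 36 tested members 8 were higher (22.2%, against 6.31% of all genes) and 1, Ak1, was lower, with a median of 0.17; the higher members numbered 5 to 7 with any 1 library left out, and 5 without knockout library 2, AzadC library 1 or AzadC library 2. The call of Ak1 was lost with any 1 library left out (edgeR adjusted p 0.0504 to 0.154).

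Macrophage genes were higher in the knockout, 19 of 33 by the test. Csf1r, the receptor of the macrophage growth factor, had 101, 89 and 86.5 CPM in the knockout, against 33.4, 35.6 and 41.5 CPM under AzadC (log2 change 1.32 ± 0.13 (SE), edgeR adjusted p = 3.02e-05). Adgre1, the macrophage surface protein F4/80, had 33.3, 32.1 and 33.7 CPM in the knockout, against 11.7, 10.7 and 11.9 CPM under AzadC (log2 change 1.53 ± 0.17 (SE), edgeR adjusted p = 7.88e-05). Tyrobp, a signalling adaptor of myeloid cells, had 18.7, 17.5 and 18.7 CPM in the knockout, against 8.2, 6.6 and 7.75 CPM under AzadC (log2 change 1.28 ± 0.17 (SE), edgeR adjusted p = 0.000342). No knockout library overlapped an AzadC library in any of the 3 genes. Apoe, an apolipoprotein that macrophages make in quantity, had 232, 189.6 and 166 CPM in the knockout, against 60.4, 63.9 and 78.4 CPM under AzadC (log2 change 1.53 ± 0.18 (SE), edgeR adjusted p = 0.000136). In a bulk sample, more cells of a type and more RNA per cell cannot be told apart.

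In all, 19 of 33 macrophage and leukocyte genes were higher in the knockout (57.6%, against 6.31% of all genes) and 1 was lower, and the median log2 change was 0.79. With any 1 library left out, 14 to 19 were higher. The AzadC libraries in turn lay above the vehicle and control libraries: the average log2 level of its members, centred on the 12 libraries, came to 0.80, 0.80 and 0.79 in the knockout, 0.10, 0.13 and 0.14 under AzadC, -0.20, -0.43 and -0.49 with vehicle and -0.28, -0.66 and -0.70 in the control. For AzadC against vehicle, 0 of 33 members passed an adjusted p below 0.05 by edgeR. At an unadjusted p below 0.05, 19 were higher (57.6%, against 3.89% of all genes). The libraries of 20 members did not overlap (60.6%, against 6.1% of all genes). The knockout and AzadC both stood above their own control groups in this list. In the test of the difference 13 members were higher (39.4%, against 2.2% of all genes). The summed level of the list was 553 to 589 CPM in the knockout libraries, 305 to 326 CPM under AzadC, 202 to 244 CPM with vehicle and 166 to 226 CPM in the control. Its part in other results was not tested.

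**Figure D3:**
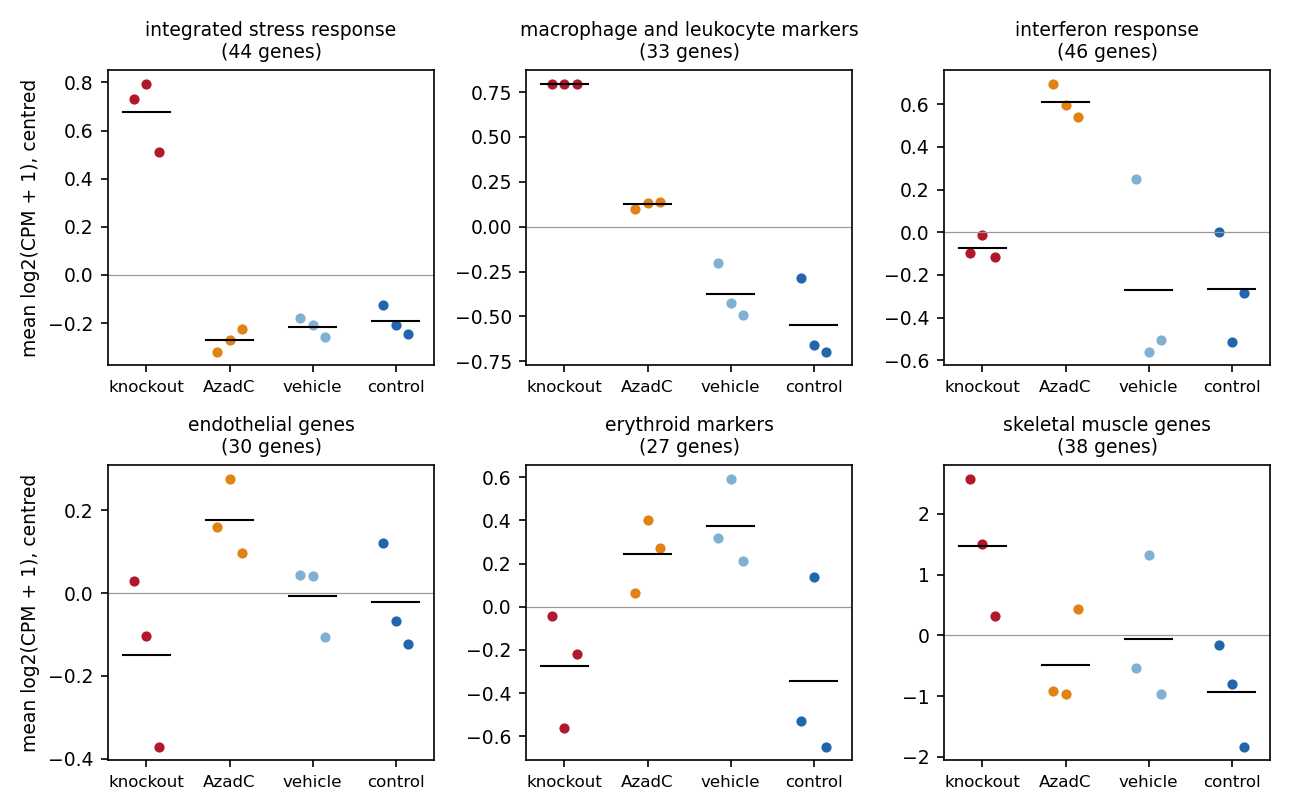
Mean over the tested members of 6 gene lists of log2(CPM + 1), centred on the mean of the 12 libraries (vertical axis, log2 units), with 1 point a library and a bar at the group mean, for knockout, AzadC, vehicle and control. The integrated stress response is high in the 3 knockout libraries alone, macrophage genes step down through the 4 groups, interferon response genes are highest in the 3 AzadC libraries, and skeletal muscle genes scatter within groups.

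Interferon response genes that passed the test, 10 of 46, were lower in the knockout than under AzadC. Ifih1, the sensor Mda5, had 4.61, 3.89 and 4.5 CPM in the knockout, against 11.8, 9.69 and 15.2 CPM under AzadC (log2 change -1.50 ± 0.27 (SE), edgeR adjusted p = 0.00333). Ddx58, the sensor RIG-I, had 16.8, 11.9 and 15 CPM in the knockout, against 32.4, 23.6 and 29.5 CPM under AzadC (log2 change -0.97 ± 0.19 (SE), edgeR adjusted p = 0.00568). Neither sensor had overlapping knockout and AzadC libraries, and the call of both held with any 1 library left out. Ifih1 averaged 8.36 CPM with vehicle and 8.49 CPM in the control, and knockout against control gave it a lower level too (log2 change -0.97, edgeR adjusted p = 0.0279). Ddx58 averaged 17.2 CPM with vehicle and 15.4 CPM in the control. Stat2, a factor of the interferon signal, averaged 29.1 ± 2.32 CPM in the knockout and 39.7 ± 1.4 CPM under AzadC (SD, n = 3 each; log2 change -0.44 ± 0.09 (SE), edgeR adjusted p = 0.00891), and was not called without knockout library 2 (edgeR adjusted p = 0.0512). Parp9, an interferon-induced partner of the ubiquitin ligase Dtx3l, averaged 5.9 ± 0.172 CPM in the knockout and 10.6 ± 2.57 CPM under AzadC (log2 change -0.84 ± 0.20 (SE), edgeR adjusted p = 0.0152), and missed the threshold without knockout library 2, AzadC library 1 or AzadC library 3 (edgeR adjusted p = 0.065, 0.0701 and 0.0509).

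Over the list, 45 of 46 tested members had a lower fitted level in the knockout, the median log2 change was -0.86, 10 were lower at an adjusted p below 0.05 by edgeR (21.7%, against 4.31% of all genes) and 0 higher. The knockout and AzadC libraries did not overlap for 35 of the 46, lower in the knockout, against 14.2% of all genes. The number called depended on the fit: 25 were lower with only the 6 libraries compared, 18 with no filter on low counts, 15 by limma-voom and 13 by DESeq2, and 3 with the muscle level as a covariate. Without knockout library 1, 2 or 3 it was 4, 4 or 5, and without AzadC library 1 or 3 it was 3 or 6.

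The average log2 level of the interferon genes, centred on the 12 libraries, came to -0.10, -0.01 and -0.11 in the knockout, 0.70, 0.60 and 0.54 under AzadC, 0.25, -0.56 and -0.50 with vehicle and -0.001, -0.52 and -0.29 in the control. By this average the knockout libraries lay within the range of the vehicle and control libraries, and the AzadC libraries above all others. Vehicle library 1 and control library 1 stood above the other libraries of their groups. For AzadC against vehicle the median log2 change was 1.23, and all 46 members had a fitted change above 0. At an unadjusted p below 0.05, 30 were higher (65.2%, against 3.89% of all genes). The libraries of 28 did not overlap (60.9%, against 6.1% of all genes), yet 0 passed an adjusted p below 0.05 by edgeR. For the knockout against its control, 4 members were higher (8.7%) and 1, Ifih1, lower (2.17%) by edgeR (against 7.83% and 6.43% of all genes), with a median of 0.19. The comparisons with the own controls share libraries with the direct one. When each group was taken relative to its own control, 2 members were lower (4.35%, against 2.2% of all genes).

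Among the lowest genes in the knockout by the naming rule, Gbp6, an interferon-induced guanylate-binding protein, had 0.548, 0.197 and 0.178 CPM in the knockout, against 2.13, 3.39 and 1.54 CPM under AzadC (log2 change -2.87 ± 0.68 (SE), edgeR adjusted p = 0.0161). Plac8, which is expressed in leukocytes and is raised by interferon, had 2.88, 0.935 and 2.9 CPM in the knockout, against 10.5, 24.8 and 9.08 CPM under AzadC (log2 change -2.72 ± 0.69 (SE), edgeR adjusted p = 0.0228). Both were low in the vehicle and control groups too, with means of 0.655 and 0.421 CPM for Gbp6 and 3.47 and 2.79 CPM for Plac8. The call of Gbp6 was lost without knockout library 2 or 3 or AzadC library 2, and that of Plac8 without knockout library 1 or 2 or AzadC library 2 (edgeR adjusted p 0.0502 to 0.102 over these). Mpo, the myeloperoxidase of neutrophils and their precursors, had 0.183, 0.197 and 0.711 CPM in the knockout, against 2.29, 5.03 and 0.801 CPM under AzadC (log2 change -2.91 ± 0.82 (SE), edgeR adjusted p = 0.0376), against the direction of the macrophage genes. It was lost when any of 4 single libraries was left out, with edgeR adjusted p values of 0.0694 to 0.171. Of the class I antigen presentation genes, Calr, Pdia3 and B2m, 3 of 19 (15.8%, against 6.31% of all genes), were higher in the knockout and 0 lower, with a median of 0.28; calreticulin and Pdia3 are also chaperones of the list above, and the call of B2m (log2 change 0.28) was lost with any 1 library left out (edgeR adjusted p 0.0609 to 0.175).

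Endothelial genes that passed the test, 11 of 30, were lower in the knockout. Aplnr, the apelin receptor, had 88.8, 92.2 and 95.3 CPM in the knockout, against 127, 111 and 116 CPM under AzadC (log2 change -0.36 ± 0.06 (SE), edgeR adjusted p = 0.00306). Erg, a transcription factor that maintains endothelial identity, had 12.2, 9.89 and 13 CPM in the knockout, against 21.4, 18.7 and 27.2 CPM under AzadC (log2 change -0.95 ± 0.19 (SE), edgeR adjusted p = 0.00719). Clec14a, a lectin of the vessel wall, had 28.4, 16.8 and 19.4 CPM in the knockout, against 36.3, 40.8 and 38.7 CPM under AzadC (log2 change -0.84 ± 0.17 (SE), edgeR adjusted p = 0.0073). In these genes all knockout libraries lay below all AzadC libraries, but the control group did not stand in 1 place: Erg was highest in the control at 40.1 CPM, and Clec14a was at 21.6 CPM there, as in the knockout. In all, 11 of 30 members were lower (36.7%, against 4.31% of all genes) and 0 higher, with a median of -0.32. The count was 5 without AzadC library 2 and 6 without AzadC library 1 or knockout library 3. It was 5 with each group relative to its own control (16.7%, against 2.2% of all genes). Acvrl1, the endothelial receptor of Bmp9 and Bmp10, which was outside the list and among the lowest genes above 50 CPM, had 38.6, 28.5 and 30.8 CPM in the knockout, against 71, 86.2 and 76.7 CPM under AzadC (log2 change -1.25 ± 0.14 (SE), edgeR adjusted p = 7.23e-05). Ccbe1, which is needed for lymphatic vessels to form, had 0.594, 1.87 and 1.84 CPM in the knockout, against 7.8, 4.85 and 8.15 CPM under AzadC (log2 change -2.29 ± 0.43 (SE), edgeR adjusted p = 0.0042), and both held with any 1 library left out.

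Of 27 erythroid genes tested, 9 were lower in the knockout and 1 was higher. The summed level of the list was 2558 to 3917 CPM in the knockout libraries, 3597 to 4618 CPM under AzadC, 4254 to 5847 CPM with vehicle and 2313 to 5922 CPM in the control, where control library 2 held the highest sum of all 12 libraries. Hbb-bh1, an embryonic beta-globin, had 150.2, 77.9 and 85 CPM in the knockout, against 264, 386 and 298 CPM under AzadC (log2 change -1.59 ± 0.28 (SE), edgeR adjusted p = 0.00299). It had 437, 358 and 294 CPM with vehicle and 88.7, 128 and 60.1 CPM in the control. Hemgn, a nuclear factor of red cell precursors, had 1.83, 0.492 and 2.84 CPM in the knockout, against 6.15, 11.8 and 7.31 CPM under AzadC (log2 change -2.31 ± 0.45 (SE), edgeR adjusted p = 0.0053), and averaged 8.65 CPM with vehicle and 1.11 CPM in the control. The lower members were 33.3% of those tested, against 4.31% of all genes. The higher one (3.7%, against 6.31% of all genes) was the transferrin receptor Tfrc. None passed with each group relative to its own control by edgeR (0 of 27), where the changes of Hbb-bh1 and Hemgn turned to 0.38 and 0.64 and the median was 0.19. Without knockout library 2, 3 members were lower, and without AzadC library 2 or 3, 6.

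Regulators of palatal and facial mesenchyme that passed the test were mostly lower in the knockout. Twist1, a helix-loop-helix factor of neural crest mesenchyme, had 107, 90.5 and 116 CPM in the knockout, against 176, 251 and 191 CPM under AzadC (log2 change -0.97 ± 0.14 (SE), edgeR adjusted p = 0.000749). Foxf2, a forkhead factor downstream of Hedgehog signalling whose loss causes cleft palate in mice, had 106, 77.3 and 111 CPM in the knockout, against 169, 209 and 198 CPM under AzadC (log2 change -0.97 ± 0.13 (SE), edgeR adjusted p = 0.000494). Runx2, the master factor of bone formation, had 37, 45.3 and 52.3 CPM in the knockout, against 73.5, 72.9 and 84 CPM under AzadC (log2 change -0.78 ± 0.14 (SE), edgeR adjusted p = 0.00327). In each of the 3 genes all knockout libraries lay below all AzadC libraries. Vehicle and control means were 163 and 177 CPM for Twist1, 177 and 175 CPM for Foxf2, and 53.6 and 100.1 CPM for Runx2, so that the knockout was the lowest group for all 3.

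Of 69 regulators tested, 19 were lower (27.5%, against 4.31% of all genes), and 2, Bmp4 and Bmp7, were higher. The remaining 48 did not pass, and the median of the list was 0.02, near that of all genes. The lower members included the forkhead genes Foxc1, Foxc2, Foxd2 and Foxl1, with log2 changes of -0.75, -1.25, -1.13 and -1.22, the receptor Pdgfra at -0.50 with its ligand gene Pdgfc at -0.45, and Snai1 and Twist2 at -1.13 and -1.06, all named after their values were seen. Between 11 (without knockout library 2) and 18 members were lower with any 1 library left out. Relative to the own control groups 12 were lower (17.4%, against 2.2% of all genes). With each group relative to its own control 0 members were higher.

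Of 22 cartilage genes tested, 5 were lower in the knockout and 1, Mia, was higher. Sox9 (ENSMUSG00000000567, chr11:112782224-112787760, mm10), the master factor of cartilage, had 30.8, 23.6 and 33.3 CPM in the knockout, against 81.6, 75.9 and 87.1 CPM under AzadC (log2 change -1.48 ± 0.18 (SE), edgeR adjusted p = 0.000202). Its partner Sox5 had 16.1, 18.4 and 27.4 CPM in the knockout, against 60.7, 48.4 and 44.7 CPM under AzadC (log2 change -1.32 ± 0.18 (SE), edgeR adjusted p = 0.000494). Col2a1, the main collagen of cartilage, had 403, 214 and 302 CPM in the knockout, against 730.1, 709.6 and 989 CPM under AzadC (log2 change -1.40 ± 0.31 (SE), edgeR adjusted p = 0.0111). The groups did not overlap in any of these, and Sox9 and Sox5 held with any 1 library left out, while Col2a1 reached an edgeR adjusted p of 0.0588 without knockout library 2. Col9a1, a collagen on the surface of the same fibrils, averaged 76.1 ± 21.2 CPM in the knockout and 205 ± 34.7 CPM under AzadC (SD, n = 3 each; log2 change -1.43 ± 0.35 (SE), edgeR adjusted p = 0.0189), and missed the threshold without knockout library 2 or 3 or AzadC library 3 (edgeR adjusted p = 0.093, 0.0568 and 0.0668). In all, 5 of 22 members were lower (22.7%, against 4.31% of all genes) and 1 higher (4.55%, against 6.31%), with a median of -0.49, and without knockout library 2 or 3 or AzadC library 3 the lower members were 2, 3 and 3. With only the 6 libraries compared or with no filter, 9 were lower. With each group relative to its own control 4 were lower (18.2%, against 2.2% of all genes), with a median of -1.61. Acan, the aggrecan of mature cartilage, was at most 0.45 TPM in the knockout, 0.7 TPM under AzadC and 1.77 TPM with vehicle, against up to 19.5 TPM in the control.

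**Figure D4:**
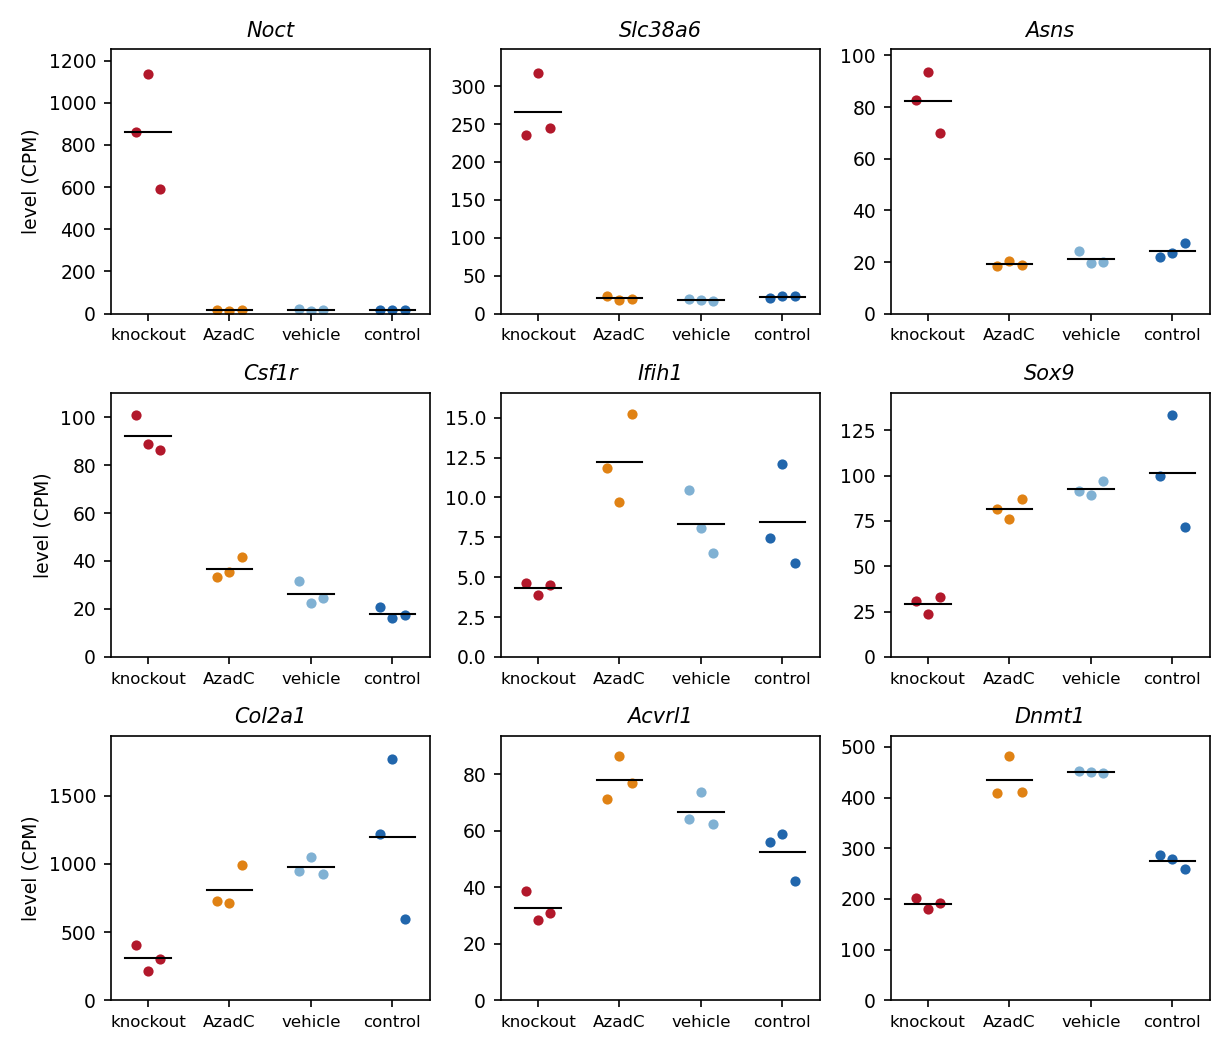
Level of 9 genes in each library in CPM (vertical axis from 0, with a scale for each gene), with 1 point a library and a bar at the group mean, for knockout, AzadC, vehicle and control. Noct, Slc38a6, Asns and Csf1r are higher in the 3 knockout libraries than in all others, Ifih1 and Acvrl1 have their highest group mean under AzadC, and Sox9 and Col2a1 are lowest in the knockout, as is Dnmt1.

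Of bone and fibrous matrix genes, 4 of 34 were lower (11.8%, against 4.31% of all genes) and 2 higher (5.88%, against 6.31%), and the median was 0.16. Beside Runx2, these were Sp7, the osteoblast factor osterix, with 3.06, 3.1 and 4.74 CPM in the knockout, against 7.88, 8.3 and 10.1 CPM under AzadC (log2 change -1.28 ± 0.27 (SE), edgeR adjusted p = 0.00849), Col12a1, a fibril-associated collagen, with 213, 122 and 193 CPM in the knockout, against 470.0, 332 and 587 CPM under AzadC (log2 change -1.40 ± 0.25 (SE), edgeR adjusted p = 0.00349), and Mkx, a tendon factor (log2 change -0.73). Vehicle libraries had lower levels of this list than control libraries, with 15 of 34 members lower in vehicle against control (44.1%, against 2.06% of all genes). Relative to the own controls, 10 members were lower in the knockout than under AzadC (29.4%, against 2.2% of all genes), among them Runx2 at -1.68 and Sp7 at -2.59.

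Of Hedgehog pathway genes, Cdon, a coreceptor of Sonic hedgehog, was higher with 72.4, 84.8 and 63.3 CPM in the knockout, against 33.7, 23.6 and 29.3 CPM under AzadC (log2 change 1.35 ± 0.16 (SE), edgeR adjusted p = 0.00014), as was the coreceptor Gas1 (log2 change 0.70). The pathway targets Gli1 and Ptch1 were lower with log2 changes of -0.32 ± 0.07 and -0.41 ± 0.09 (SE; edgeR adjusted p = 0.00894 and 0.0141), beside Foxf2, Foxl1 and the inhibitor Sufu. That makes 2 of 20 members higher (10%, against 6.31% of all genes) and 5 lower (25%, against 4.31%), with 3 lower without AzadC library 2 or knockout library 2; the call of Ptch1 was lost without either of these (edgeR adjusted p = 0.054 and 0.0776). Relative to the own controls, 1 was higher and 1 lower (5% each, against 2.2% of all genes each), and Gli1 stood at -0.11.

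Among BMP and TGF-beta genes, Id2, a direct target of BMP signalling, had 86.3, 83 and 99.5 CPM in the knockout, against 135, 134 and 149 CPM under AzadC (log2 change -0.64 ± 0.08 (SE), edgeR adjusted p = 0.000377). Smad9, a BMP-responsive Smad, averaged 8.32 ± 0.603 CPM in the knockout and 18.4 ± 5.58 CPM under AzadC (SD, n = 3 each; log2 change -1.16 ± 0.20 (SE), edgeR adjusted p = 0.00243), and Ltbp2, a latent TGF-beta-binding protein family member of elastic fibres, 1.32 ± 0.759 CPM in the knockout and 6.66 ± 1.29 CPM under AzadC (log2 change -2.35 ± 0.49 (SE), edgeR adjusted p = 0.00801). The ligand genes ran both ways, with Bmp4 and Bmp7 at 0.41 and 0.55, Gdf6 at 2.49 and Bmp2 at -0.79. In all, 6 of 31 members were lower (19.4%, against 4.31% of all genes) and 3 higher (9.68%, against 6.31%), and without AzadC library 3 the lower members were 3. The higher members were 1 with any 1 library left out except knockout library 1. Of 31 Wnt pathway targets 2 were higher (6.45%), among them the Wnt inhibitor Dkk1 (log2 change 1.40), and 3 lower (9.68%), among them Lgr5, a receptor of R-spondins (log2 change -0.75), where 6.31% and 4.31% of all genes were. Of 24 FGF and ERK feedback genes, Spry4 and Etv4 were higher (log2 changes 0.82 and 0.68) and the receptor gene Fgfr2 lower (-0.93), 8.33% and 4.17% of the list and so near the shares over all genes. With any 1 library left out, 1 to 2 Wnt targets were lower and 0 to 4 FGF genes were higher.

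Skeletal muscle genes had a median log2 change of 2.50, and 4 of 38 (10.5%, against 6.31% of all genes), Pax7, Myog, Neb and Cdh15, were higher in the knockout and 0 lower. Of the 38, 7 passed the filter on low counts only through the knockout libraries, and 0 of these were called higher. Of the other 31, 4 were higher (12.9%, against 4.89% of all genes that passed through other groups too), with a median log2 change of 2.54. Myog, the myogenin factor of muscle differentiation, had 94.7, 58.9 and 19.4 CPM in the knockout, against 3.78, 4.3 and 13.7 CPM under AzadC (log2 change 2.91 ± 0.86 (SE), edgeR adjusted p = 0.0467), so that knockout library 3 and AzadC library 3 were close to each other. The count was 0 without knockout library 1 or 2 or AzadC library 1 or 2, 5 without AzadC library 3 and 9 without knockout library 3. It was 13 with only the 6 libraries compared and 36 with no filter on low counts, and 0 by limma-voom. Epithelial genes gave 1 of 36 higher (2.78%, against 6.31% of all genes) and 0 lower, with a median of -0.02.

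Neuronal genes gave 4 of 22 higher (18.2%, against 6.31% of all genes) and 1 lower, with 1 to 3 higher with any 1 library left out. Of the 22, 1 passed the filter only through the knockout. Of the other 21, 3 were higher (14.3%, against 4.89% of all genes that passed through other groups too). Tubb3, the neuronal beta-tubulin, had 18.4, 22.7 and 13.5 CPM in the knockout, against 4.1, 5.33 and 5.98 CPM under AzadC (log2 change 1.81 ± 0.25 (SE), edgeR adjusted p = 0.000494), and held with any 1 library left out. Stmn2, a microtubule regulator of growing axons, was lower with 3.56, 3.1 and 3.38 CPM in the knockout, against 7.17, 6.84 and 5.64 CPM under AzadC (log2 change -0.96 ± 0.22 (SE), edgeR adjusted p = 0.015), and its edgeR adjusted p was 0.0698 without knockout library 2 and 0.0564 without AzadC library 1. Of 16 Schwann and melanocyte genes, Erbb3 and Cdh19 were higher (log2 changes 0.90 and 1.51; 12.5% of the list, against 6.31% of all genes) and 0 lower. Both calls were lost without knockout library 2 (edgeR adjusted p = 0.0897 and 0.11), and that of Cdh19 also without knockout library 1 or 3 or AzadC library 3.

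**Figure D5:**
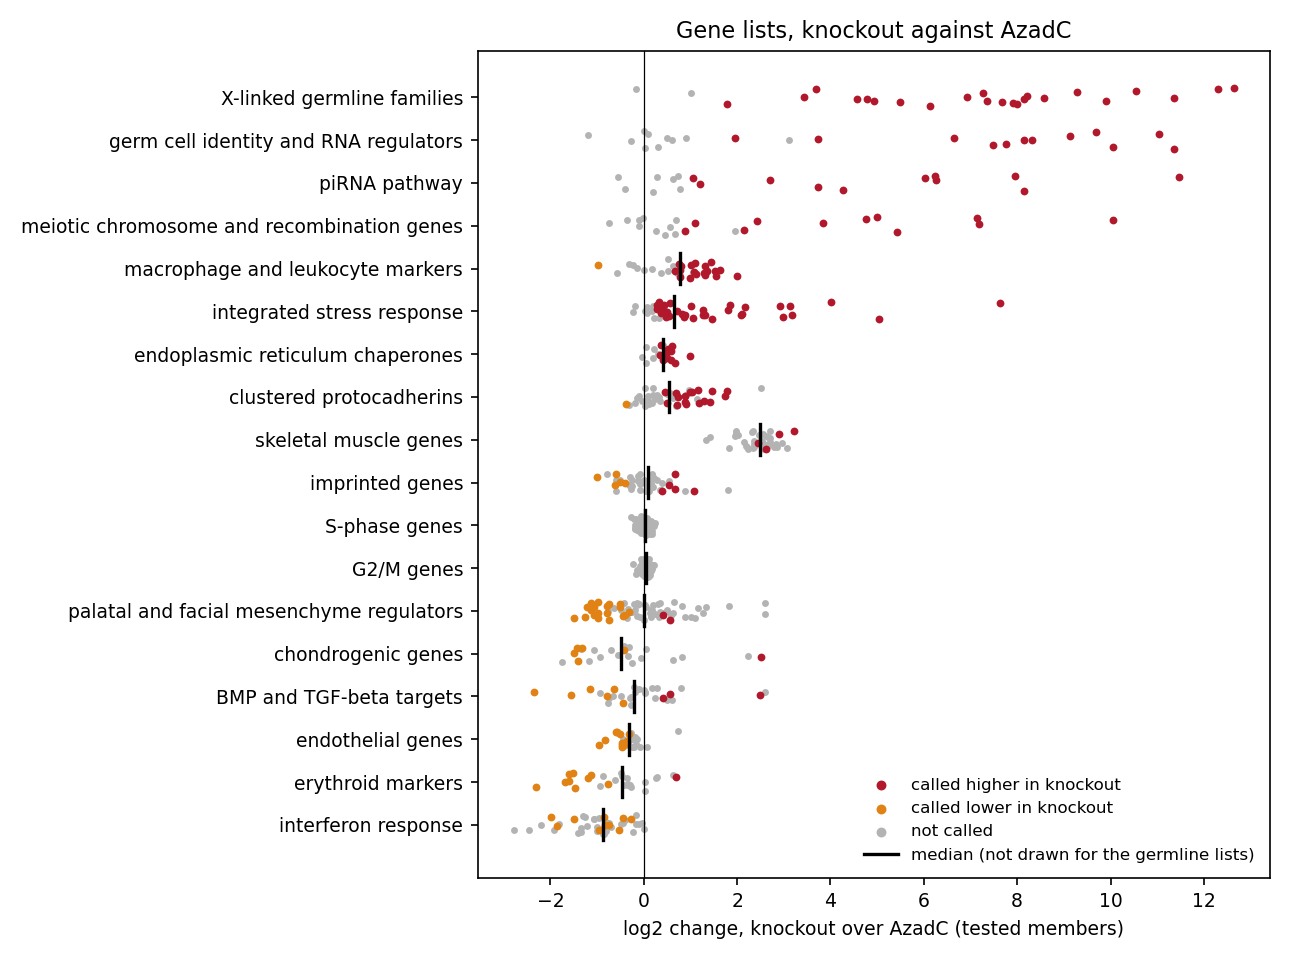
Log2 change of every tested member of 18 gene lists, knockout over AzadC (horizontal axis), with members called higher in the knockout in red, called lower in orange and not called in grey, and a bar at the median of each list except the germline lists, whose members mostly passed the filter through the knockout. Members of the integrated stress response, macrophage and protocadherin lists lie mostly right of 0, those of the interferon and endothelial lists mostly left of 0, and S-phase and G2/M members close to 0.

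Imprinted genes, which are expressed from 1 parental allele under the control of methylated regions, gave 5 of 49 tested higher (10.2%, against 6.31% of all genes) and 5 lower (10.2%, against 4.31%), with a median of 0.09. Mest, a paternally expressed hydrolase family gene, had 1466, 1777 and 1507 CPM in the knockout, against 1063, 971 and 939.8 CPM under AzadC (log2 change 0.68 ± 0.08 (SE), edgeR adjusted p = 0.00016). Grb10, a growth inhibitor of insulin receptor signalling, had 1705, 1600.2 and 1663 CPM in the knockout, against 2293, 2519 and 2234 CPM under AzadC (log2 change -0.50 ± 0.06 (SE), edgeR adjusted p = 0.000118). These 2 held with any 1 library left out. The others higher were Impact, H19, Ddc and Peg10 (log2 changes 0.39, 0.54, 1.07 and 0.68), and the others lower were Zdbf2, Blcap, Magel2 and Asb4 (log2 changes -0.60, -0.41, -1.01 and -0.62). The higher members were 2 without AzadC library 1 and 3 without AzadC library 2 or knockout library 2, and the lower members were 3 without AzadC library 2 or knockout library 2. H19 and Igf2 are the best known reciprocal pair. H19 had 8561, 7182 and 6285 CPM in the knockout, against 4688, 4944 and 5488 CPM under AzadC. Igf2 had 2191, 1581 and 1657 CPM in the knockout, against 2093, 2112 and 2294 CPM under AzadC and did not pass (edgeR adjusted p = 0.177).

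Clustered protocadherins are neural adhesion molecules whose alternative promoters are chosen under DNA methylation. Of 48 tested, 17 were higher in the knockout (35.4%, against 6.31% of all genes) and 1 was lower, with a median of 0.53. Of the 48, 1 passed the filter only through the knockout. Of the other 47, 16 were higher (34%, against 4.89% of all genes that passed through other groups too). Pcdhb14 had 6.08, 6.25 and 5.45 CPM in the knockout, against 2.36, 1.64 and 1.3 CPM under AzadC (log2 change 1.78 ± 0.26 (SE), edgeR adjusted p = 0.000705). Pcdhb19 had 13.4, 13.9 and 13.6 CPM in the knockout, against 5.6, 5.33 and 5.71 CPM under AzadC (log2 change 1.297 ± 0.19 (SE), edgeR adjusted p = 0.000985). With any 1 library left out 7 to 13 were higher, with 7 without knockout library 2, 10 without AzadC library 2 and 11 without AzadC library 1. With each group relative to its own control, 2 were higher (4.17%, against 2.2% of all genes). Variable exons of these clusters share constant exons, and neighbouring members are alike, so that reads can be split between them.

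Cell cycle genes did not pass the test. Of 50 S-phase genes 0 were higher and 0 lower by edgeR, and the unadjusted p was below 0.05 for 2 in each direction. DESeq2 called 1 lower and limma-voom 0. Their log2 changes had a median of 0.019 and 95% intervals of all members within -0.47 to 0.53. Of 54 G2/M genes 0 were higher and 0 lower by edgeR, and the unadjusted p was below 0.05 for 1 in each direction. DESeq2 and limma-voom called 0. Their log2 changes had a median of 0.042 and 95% intervals within -0.47 to 0.47. Differences between knockout and AzadC beyond these bounds were not found in either list. Relative to the own controls, 5 G2/M genes were higher by edgeR (9.26%, against 2.2% of all genes). In vehicle against control 19 of 54 members were higher (35.2%, against 1.46% of all genes). In knockout against control 34 of 54 G2/M genes (63%) and 11 of 50 S-phase genes (22%) were higher by edgeR, against 7.83% of all genes, and 0 were lower. The small direct differences are therefore no statement that the knockout stood at the control level.

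Of 36 hypoxia and glycolysis genes 8 were lower (22.2%, against 4.31% of all genes) and 2 higher (5.56%, against 6.31%), with a median of -0.19. Vegfa, the vessel growth factor, had 110.3, 103 and 101 CPM in the knockout, against 131, 143 and 133 CPM under AzadC (log2 change -0.38 ± 0.06 (SE), edgeR adjusted p = 0.00135). Pdk1, which keeps pyruvate out of mitochondria, had 28.9, 29.6 and 32.9 CPM in the knockout, against 45.7, 45.3 and 47.6 CPM under AzadC (log2 change -0.60 ± 0.11 (SE), edgeR adjusted p = 0.00331), and 5 members were lower without knockout library 2. Of 15 mitochondrially encoded genes, mt-Nd2, mt-Nd5 and mt-Nd6 were higher (log2 changes 0.28, 0.45 and 0.53; 20% of the list, against 6.31% of all genes) and 0 lower; without AzadC library 2 or 3, or knockout library 2 or 3, 1 was. Y-linked genes, which follow the sex of the pooled embryos, gave 0 of 4 by edgeR at adjusted and unadjusted p, and 1 of 31 Hox genes, Hoxa2, had enough counts to be tested (edgeR adjusted p = 0.171).

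Further genes at the low end by the naming rule were Trhde, the enzyme that degrades thyrotropin-releasing hormone, with 0.228, 0.344 and 0.593 CPM in the knockout, against 3.47, 2.73 and 2.3 CPM under AzadC (log2 change -2.87 ± 0.37 (SE), edgeR adjusted p = 0.000289), and Nsun7, of an RNA methyltransferase family, with 0.594, 0.197 and 0.415 CPM in the knockout, against 1.81, 1.7 and 1.64 CPM under AzadC (log2 change -2.07 ± 0.40 (SE), edgeR adjusted p = 0.00556). Ano4, Bean1, Pdzrn4 and Prss23os completed that set with log2 changes of -2.26, -1.88, -1.83 and -1.90. Prss23os lies antisense to Prss23, and the strand setting of the counting is not given, so that its reads cannot be told from those of its partner. Among genes above 50 CPM, Mecom, a zinc finger transcription factor, had 108, 107 and 107 CPM in the knockout, against 246, 305 and 241 CPM under AzadC (log2 change -1.296 ± 0.10 (SE), edgeR adjusted p = 2.19e-06). The genes Trhde, Nsun7, Pdzrn4, Prss23os and Mecom held with any 1 library left out, while Bean1 was lost when any of 4 single libraries was left out (edgeR adjusted p 0.075 to 0.163).

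The direct comparison takes in the difference between the unexposed groups, since 253 genes were higher (1.46%) and 357 lower (2.06%) in vehicle against control by edgeR at an adjusted p below 0.05, 3.52% in all. With the knockout taken relative to control and AzadC relative to vehicle, 382 genes were higher and 381 lower in the difference (2.2% each, 4.4% in all). This test could not be used for genes without counts in the AzadC, vehicle and control libraries, such as Dcaf8l and Tex13b. Against control, 1358 genes were higher (7.83%) and 1115 lower (6.43%) in the knockout. Against vehicle, 1 gene was higher and 1 lower under AzadC (0.0115% in all). The gene higher under AzadC was Cav1, caveolin of the cell surface pits, with 18.5, 20.2 and 17.8 CPM in the knockout libraries, 24.8, 25.9 and 28.3 CPM in the AzadC libraries and 16, 12.4 and 15.2 CPM in the vehicle libraries (AzadC over vehicle: log2 change 0.86 ± 0.11 (SE), edgeR adjusted p = 0.0232). The control libraries had 20.9, 22.7 and 23.2 CPM of Cav1, so that vehicle was itself below control (log2 change -0.62 ± 0.11 (SE), edgeR adjusted p = 0.0118). With 1 AzadC or vehicle library left out, 0 to 16 genes were higher, the 16 without vehicle library 1. At an unadjusted p below 0.05, 674 genes were higher and 431 lower under AzadC.

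No gene was called in the same direction in both by edgeR (0 of the 2473 called in the knockout and 0 of the 2 called under AzadC). DESeq2 called 81 genes higher and 8 lower under AzadC, and 32 of its calls were shared in direction with its calls in the knockout. The level of skeletal muscle genes varied between libraries, and the groups compared overlapped in it. The mean log2 level of these genes was 4.78, 3.62 and 2.24 in the knockout and 0.45, 0.38 and 2.37 under AzadC. With this level as a covariate 816 genes were higher and 628 lower in the direct comparison. With the same covariate the protocadherins higher in the knockout numbered 8 in place of 17, the macrophage genes 13 in place of 19 and all germline genes 50 in place of 55.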

How the data were processed

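RNA from palatal shelves of gestational day 12 was sequenced after a NuGen mRNA library kit, per the labels' protocols. Build mm10, RSEM 1.3.1, STAR 2.7.0, Trim Galore, FastQC and DESeq2 are listed in the submitters' processing notes, with no settings. Each library's deposited table gives, per the file headers, an expected count (estimated reads, not whole) and TPM (per length) for each of 56691 genes; the sources used here do not say whether counting used strand. The labels give pools of 2 embryos, while the design text speaks of 3 pooled animals.

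Expected counts were rounded to whole numbers. Genes were filtered by group (filterByExpr), scaled by TMM and tested with edgeR 4.0.16 (R 4.3.3) by quasi-likelihood over all 12 libraries with 1 mean per group, with Benjamini-Hochberg adjustment over the 17335 genes tested. Levels are CPM with TMM-scaled library sizes. TPM, which has no TMM scaling, was used for levels of cell type markers, among them Acan, and to compare genes. The standard error of a log2 change was taken as its size over the root of F. Folds against a group without counts are lower bounds against 3 counts over the group, and intervals of ratios (95%) cover counting error only. On simulated data for knockout against AzadC over 17335 genes, the test recovered 50.7%, 71.6% and 92.4% of changes of 1.5, 2 and 4 fold, with 3.38% of calls false. Alternatives were limma 3.58.1 (voom) and DESeq2 1.42.0, other scalings, filters and covariates, and each library left out. Depth bounds precision: the shallowest library, AzadC 1, had 12640536 expected counts. Replicates of each group differed beyond sampling noise.

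Gene positions are from GENCODE M21, which held 52073 (91.9%) of the genes, and promoters from RefSeq. The genes compared and the gene lists were chosen with earlier results of these data known. Genes were named by a rule on the size of change (the 12 highest and lowest above 1 CPM, the 8 highest and lowest above 50 CPM, without overlap between groups) and up to 4 members of each list by adjusted p; further members named were chosen after their values were seen. Some genes that the rule names are not reported here.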

Additional observations from a re-analysis of the deposited data

Results flagged for a closer look

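Meioc was flagged because its change differed between the knockout and AzadC, each taken against its own control group. The knockout stood above control by a log2 change of 2.60 and AzadC stood below vehicle by one of -3.99, a difference of 6.59 ± 0.36 on the log2 scale (SE; edgeR adjusted p = 3.85e-07). Of the 4 groups the vehicle libraries were highest, at 18.7, 27.8 and 25.2 CPM, against 0.865, 1.19 and 0.799 CPM in the control libraries. The cause was not tested.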

How the results depend on the processing

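Knockout against AzadC kept its counts within 1.5 times of 1093 higher and 748 lower genes under DESeq2, limma-voom, other scalings, other filters, a fit of the 6 libraries alone and covariates for muscle or Y-linked level. A test against a 1.2-fold change called 574 and 183, the difference relative to the own control groups 382 and 381, and leaving out 1 library 620 to 953 and 295 to 557. Knockout against control had 1358 higher and 1115 lower genes, 673 and 404 against a 1.2-fold change, and 808 to 1262 and 552 to 969 without 1 library; the lowest counts came without knockout library 2 (808 and 552), and control library 2 left 875 and 624. AzadC against vehicle, with 1 gene each way, gave 81 higher and 8 lower by DESeq2, 102 and 17 without a filter, 5 and 2 with the Y-linked level, 2 higher with the muscle level or with only its own libraries, 0 higher against a 1.2-fold change, and 0 to 16 higher and 1 to 2 lower without 1 library. Genes called the same way in both numbered 0, 32 by DESeq2, 35 without a filter, 2 with the Y-linked level, 1 with the muscle level, and 0 to 6 without 1 library.

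The replicate numbers did not pair the knockout and AzadC libraries: same-numbered libraries correlated at -0.08, -0.03 and -0.09 in their deviations, and no knockout library correlated best with its own number there. Against the control, each of the 3 knockout libraries correlated best with the library of its own number, at 0.28, 0.08 and 0.24. What these libraries share is not given by the labels. With a replicate block, knockout against AzadC gave 940 and 655 genes, knockout against control 1228 and 1016, AzadC against vehicle 0 and 1, and 0 shared.

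Of 137 named genes tested, 126 passed. Signs turned relative to the own control groups for Fli1 (0.075), Hbb-bh1 (0.376), Hemgn (0.641), Nefl (-0.714), Nusap1 (0.099) and Stmn2 (0.241), for Tet1 without AzadC library 2 (-0.025, up to 0.04 without another) and for Uty with the muscle level (0.118). The call was lost for 29 without knockout library 2 and for 61 relative to the own control groups, where genes without counts in 3 groups could not be fitted. The causes were not tested. With 3 pools a group, small changes of low genes lie below what depth can show.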
